A study of Mus musculus with 8 samples.

Results

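Translation initiation factors are the proteins that bring the initiator tRNA, the ribosomal subunits and an mRNA together at a start codon. Their genes were read here as every row whose symbol begins with Eif1 to Eif6, leaving out the eIF2alpha kinases (Eif2ak), the cap-binding inhibitors (Eif4ebp) and pseudogenes. That rule took 48 of the 24413 symbols in the count tables and left out 7 that match the pattern. They were sorted by complex into 5 eIF1, 6 eIF2, 5 eIF2B, 14 eIF3, 13 eIF4, 4 eIF5 genes and 1 eIF6 gene. The sorting follows the symbols, so Eif2a and Eif2d, which are not subunits of the eIF2 complex, stand with eIF2.

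The study asked what a loss of Jagn1 limited to B cells changes in plasmablasts. JAGN1 is a protein of the endoplasmic reticulum membrane. B cells (B220+) were enriched from spleens of the C57BL/6J strain and kept in culture with LPS, a bacterial lipopolysaccharide that drives B cells to become antibody-secreting plasmablasts, at 25 µg/ml and over 4 days. Cells of the CD22-CD138+ phenotype were then sorted. The knockout mice were Jagn1fl/fl Mb1Cre+ and the controls were Jagn1fl/fl, with 4 mice and 4 libraries per genotype. Both groups therefore carried the floxed allele. Mb1-Cre is expressed from the Cd79a locus in the B lineage, and no Cre is listed for the controls, so effects of the Cre allele and of the loss of Jagn1 cannot be told apart. The age and sex of the mice are not in the labels. RNA was read as tags from the 3′ ends of transcripts (QuantSeq FWD), which gives about 1 tag per transcript whatever its length.

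Initiation runs through a series of complexes. eIF2 carries the initiator tRNA to the small ribosomal subunit, eIF2B recharges eIF2 with GTP, eIF3 is the large scaffold on the small subunit, and the eIF4 factors bind and unwind the capped end of the mRNA. eIF1 and eIF1A keep the scanning ribosome open until a start codon is found, eIF5 and eIF5B complete start site selection and subunit joining, and eIF6 keeps large subunits from joining too early. Stress kinases phosphorylate eIF2alpha, which blocks eIF2B. This lowers most translation while a few mRNAs, such as Atf4, are translated more. Plasmablasts make large amounts of secreted protein, so the supply of these factors bears on their main task.

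The libraries held 5882912 to 10066661 counts. Jagn1 counts were 19, 35, 16 and 99 in controls 1 to 4, and 2, 1, 1 and 1 in knockouts 1 to 4. The fitted log2 difference of Jagn1 was -4.81 ± 0.73 (SE), with an adjusted p of 0.000818 by edgeR's quasi-likelihood test with Benjamini-Hochberg adjustment, and the groups did not overlap. Over all 9904 genes that passed the count filter, 568 (5.74%) were called at an adjusted p below 0.05, of which 252 (2.54%) were higher and 316 (3.19%) lower in the knockout. Controls 1 and 4 stood farther from their group than the rest: the root mean square deviation over all genes was 0.594 and 0.581 log2 units there, against 0.407 to 0.432 in the other controls and 0.324 to 0.388 in the knockouts. Markers of the labelled cell type were present. The summed plasmablast markers stood at 7230 to 11995 CPM (counts scaled to library totals after TMM adjustment) in controls and 4685 to 7081 in knockouts. Most of that sum was Jchain, at 5758 to 10015 CPM in controls and 3318 to 5473 in knockouts. Sdc1 stood at 33.0 to 56.7 CPM in controls and 16.8 to 23.3 in knockouts. Tnfrsf17 was lowest, at 6.28 to 13.9 and 0.806 to 4.46 CPM. Of the 7 plasmablast markers, 4 were lower in the knockout (Sdc1, Jchain, Tnfrsf17 and Slamf7). The 6 B cell markers summed to 854 to 1097 CPM in controls and 788 to 894 in knockouts, and 1 of the 5 tested, Cd79a, was lower in the knockout. Markers of other cell types had low levels. The 6 T cell markers summed to 9.05 to 12.5 CPM in controls and 5.50 to 7.21 in knockouts, 3 dendritic markers to 1.26 to 4.46 and 4.16 to 6.49, and 6 myeloid markers to 1.07 to 2.53 and 0.940 to 3.16, with Lyz2, S100a8 and S100a9 at 0. The 3 NK markers summed to at most 0.682 CPM with Ncr1 at 0, and all 5 erythroid markers were at 0. Whether these shifts in cell makeup have a part in any difference below was not tested. In bulk RNA, fewer cells of a type and less RNA per cell cannot be told apart.

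Of the 48 initiation factor genes, 43 passed the count filter. Eif2s3y, Eif3j1, Eif3j2 and Eif4e1b had 0 counts in all 8 libraries, which allows a level of up to 0.292 to 0.483 CPM by library (3 counts, covering counting error only). Eif2s3y is the Y-linked copy of the eIF2gamma gene. The Y-linked genes Kdm5d and Uty were also at 0 in all 8 libraries, Ddx3y had 3 counts in 1 knockout library, and Xist stood at 545 to 794 CPM. Eif3j1 and Eif3j2 encode the same loosely bound eIF3 subunit, and 80.1% of the 50-base words near the 3′ end of Eif3j2 occur in Eif3j1 transcripts as well. None of the 251 words near the 3′ end of Eif3j1 occurs in another gene, but Eif3j1 shares 1107 exonic bases with Spg11 on the opposite strand. The sources used here do not say how ambiguous tags were counted. Eif4e1b is the form of eIF4E known from oocytes. Eif5a2, a paralog of Eif5a, had 12, 0, 1 and 5 counts in the controls and 0, 1, 1 and 3 in the knockouts, too few to test.

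One initiation factor gene was called. Eif3c, which encodes a core subunit of the eIF3 scaffold, was higher in the knockout, and no member was lower. This is 1 of 43 tested members higher, beside 2.54% of all genes, and 0 of 43 lower, beside 3.19%. At an unadjusted p below 0.05 there were 6 members higher (Eif1ad, Eif2s2, Eif3c, Eif3f, Eif3g and Eif3m), beside 8.3% of all genes, and 0 lower, beside 9.72%. The groups of libraries did not overlap for 2 members, Eif3c and Eif3g, both higher, beside 6.45% of all genes, and for 0 lower, beside 6.64%. The median log2 difference of the 43 was 0.09, against -0.01 over all genes tested, with 25 members above 0 and 18 below. DESeq2 also called Eif3c alone, beside 3.72% of all genes higher and 4.95% lower. Limma-voom with sample weights called 6 members higher (Eif1ad, Eif2s2, Eif3c, Eif3e, Eif3f and Eif3m), beside 4.85% of all genes, and 0 lower, beside 5.96%. Without control 4, edgeR called 5 higher, beside 4.09%, and 0 lower, beside 4.79%. Without both controls 1 and 4, an alternative chosen after seeing the data, it also called 5 higher, beside 4.26%, and 0 lower, beside 4.5%. It called 2 higher without control 1, beside 3.68%, and 0 lower, beside 4.44%. It also called 2 higher without knockout 4, beside 1.96%, and 0 lower, beside 2.1%. The remaining alternatives, like DESeq2, called Eif3c alone. Over all 17 alternatives, 1.35% to 4.85% of genes were called higher and 1.31% to 5.96% lower.

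**Figure D1:**
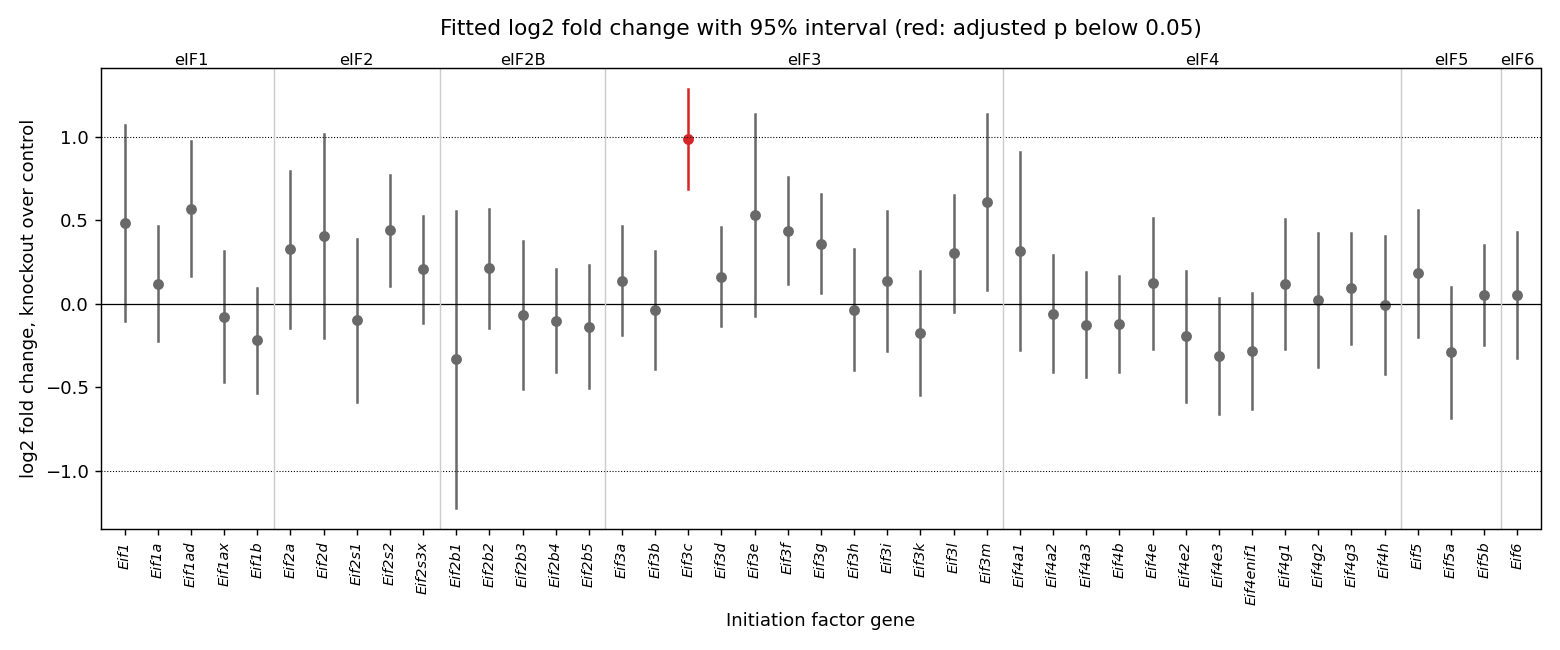
Fitted log2 difference (knockout minus control) of the 43 tested initiation factor genes by complex, with 95% confidence intervals as vertical lines and dotted lines at a 2-fold change. Eif3c, in red at 0.99 with an interval of 0.69 to 1.29, is the only called gene.

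The precision of most members was enough to bound their change. The 95% interval of the log2 difference lay within 2-fold in both directions for 37 of 43 members (86.0%), against 60.2% of all genes tested. The members were read more deeply, with a median of 129 CPM against 19.3 over all genes. The interval lay within 1.5-fold for 25 members. The 6 members whose interval reached past 2-fold were Eif1, Eif2b1, Eif2d, Eif3c, Eif3e and Eif3m.

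Eif3c lies on chromosome 7 of GRCm38 at 126546455 to 126566411 on the minus strand, in 20 merged exons (GENCODE M21). Its levels were 659, 574, 562 and 489 CPM in controls 1 to 4. They were 1245, 1211, 963 and 1110 CPM in knockouts 1 to 4. Every knockout library stood above every control, and the lowest knockout was well clear of the highest control. The group means were 571 ± 69.6 CPM and 1132 ± 126 CPM (SD, n = 4 each), a 1.98-fold difference. The log2 difference was 0.99 ± 0.14 (SE), with an adjusted p of 0.000519 by edgeR's quasi-likelihood test with Benjamini-Hochberg adjustment. It was called in all 17 alternatives tried, with adjusted p up to 0.00486. No exon of another annotated gene overlaps Eif3c, and none of the 50-base words near its 3′ ends occurs in another gene's transcripts.

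The stretch upstream of Eif3c is shown because it is the promoter of the called gene. It covers 250 to 51 bases before the start, at chr7:126566417-126566616 of GRCm38.p6 (RefSeq), printed 5′ to 3′ on the gene's own minus strand with 49.5% G and C.
Eif3c: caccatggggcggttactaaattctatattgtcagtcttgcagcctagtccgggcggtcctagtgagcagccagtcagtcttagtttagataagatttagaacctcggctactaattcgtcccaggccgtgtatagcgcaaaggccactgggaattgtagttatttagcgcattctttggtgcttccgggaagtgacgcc
Neither motif described further on was matched in the window of Eif3c, which says only that those letters are not there.

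None of the other 11 tested eIF3 genes passed the test, beside 5.74% of all genes. Eif3c made up 10.4% ± 0.406 of the counts over the 12 tested eIF3 genes in controls and 16.97% ± 1.53 in knockouts (SD, n = 4), with ranges of 10.0% to 10.9% and 14.9% to 18.6%. The other 11 eIF3 genes summed to 4966 ± 791 CPM in controls and 5536 ± 240 CPM in knockouts (SD, n = 4). Control libraries ran from 3981 to 5918 CPM in that sum and knockout libraries from 5321 to 5878, so the knockouts lay inside the control range. Of the 12 tested eIF3 genes, 9 had a positive log2 difference, and the group median was 0.23. The median stayed between 0.18 and 0.30 in the 17 alternatives.

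Eif3f, which belongs to the pair of eIF3 subunits with an MPN fold, had the highest level of the eIF3 genes. It read 1265, 1250, 1054 and 887 CPM in controls 1 to 4. It read 1606, 1679, 1504 and 1248 CPM in knockouts 1 to 4. The groups overlapped, since knockout 4 lay just below controls 1 and 2. The log2 difference of Eif3f was 0.44 ± 0.15 (SE), with an adjusted p of 0.116 by edgeR's quasi-likelihood test. Eif3g, an RNA-binding subunit near the mRNA entry channel, did not overlap between groups. Its controls read 167, 168, 140 and 158 CPM and its knockouts 206, 191, 179 and 235 CPM. The log2 difference of Eif3g was 0.36 ± 0.14 (SE), short of the threshold with an adjusted p of 0.172 by edgeR's quasi-likelihood test.

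Eif3e and Eif3m, which both belong to the PCI-fold subunits of eIF3, showed a wide spread among controls. Eif3m read 21.4, 30.8, 37.5 and 57.1 CPM in controls and 63.4, 57.1, 58.9 and 45.3 CPM in knockouts. Eif3e read 24.0, 34.8, 51.4 and 82.2 CPM in controls and 79.8, 68.2, 64.9 and 66.7 CPM in knockouts. In both genes control 1 was the lowest library, while control 4 lay among the knockouts for Eif3m and above them for Eif3e. Their log2 differences were 0.61 ± 0.25 for Eif3m and 0.53 ± 0.28 for Eif3e (SE), with adjusted p of 0.192 and 0.350 by edgeR's quasi-likelihood test. Without control 4, both passed the threshold, together with Eif1 and Eif1ad. Of the 50-base words near the 3′ end of Eif3m, 34.3% occur in the gene model Gm7658, so its tags may be split between them. The core subunits Eif3a and Eif3b had log2 differences of 0.14 and -0.04, the cap-binding subunit Eif3d 0.16, and Eif3h, Eif3i, Eif3k and Eif3l -0.04, 0.14, -0.17 and 0.30. None of these 7 passed the test.

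**Figure D2:**
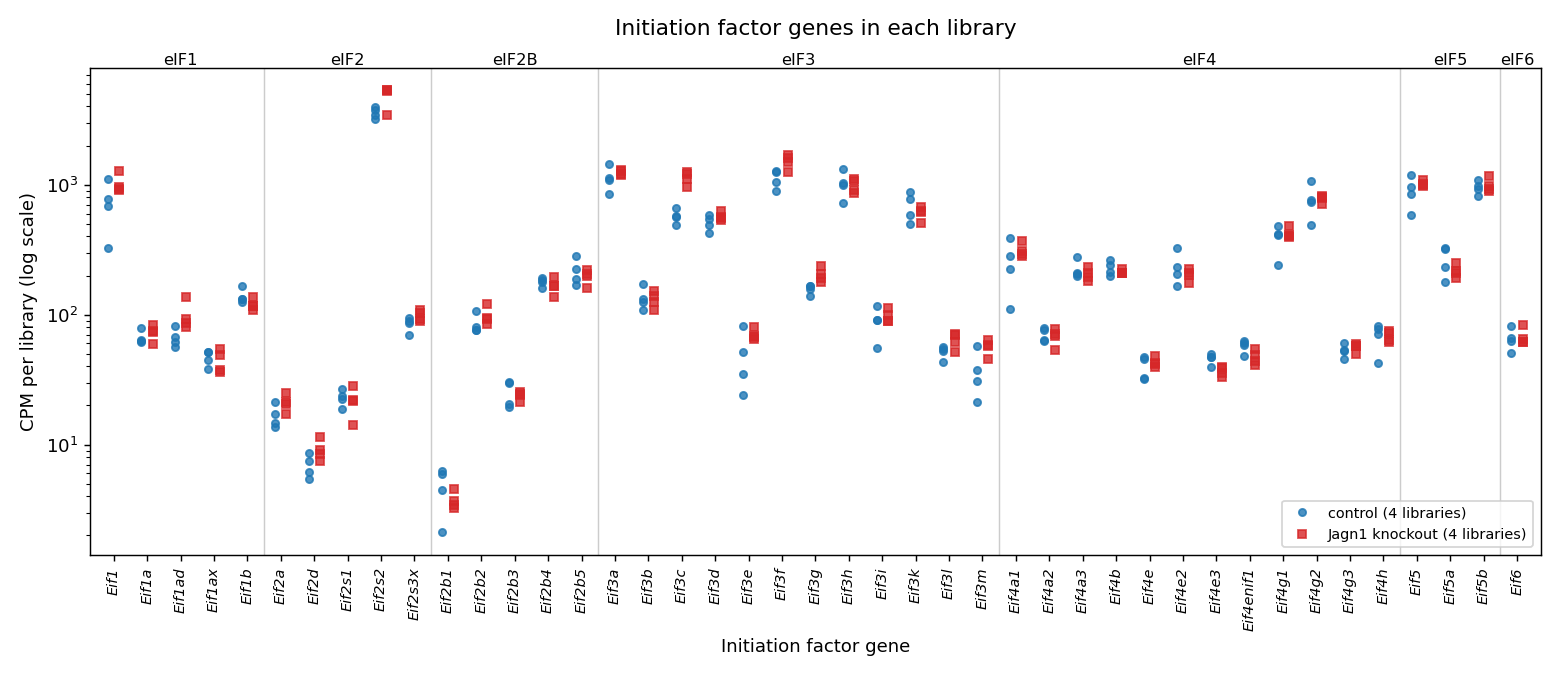
Level of the 43 tested initiation factor genes in each library by complex, on a log axis in CPM, with the 4 controls as blue circles and the 4 knockouts as red squares. Eif3c is separated between the groups, with controls at 489 to 659 CPM and knockouts at 963 to 1245 CPM.

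Eif2s2, the gene of eIF2beta, had the highest level of all members. It read 3934, 3448, 3728 and 3187 CPM in controls 1 to 4. It read 5326, 5382, 5238 and 3442 CPM in knockouts 1 to 4. Knockouts 1 to 3 stood above every control, while knockout 4 lay among the controls. The log2 difference of Eif2s2 was 0.44 ± 0.16 (SE), with an adjusted p of 0.125 by edgeR's quasi-likelihood test. Without knockout 4, Eif2s2 passed the threshold. It alone made up 20.6% to 28.7% of all member counts by library.

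The 3 subunits of eIF2 form a complex with 1 copy of each, yet their tags differed widely. Eif2s2 had 119 to 248 times the CPM of Eif2s1, the gene of eIF2alpha, and 33.6 to 57.6 times that of Eif2s3x, the X-linked gene of eIF2gamma. Part of the 3′ end of Eif2s2 (34.7% of its words) is shared with Gm9892, and part of that of Eif2s3x (35.7%) with Gm2223, while that of Eif2s1 is not shared. Levels of this kind also depend on which 3′ ends the counting annotation covers, and the sources used here do not name it. Eif2s1, whose protein is the target of the stress kinases, had 22.9 ± 3.30 CPM in controls and 21.4 ± 5.68 CPM in knockouts (SD, n = 4), with a log2 difference of -0.10 and an interval of -0.59 to 0.39. Eif2s3x had a log2 difference of 0.21 with an interval of -0.11 to 0.53. Of the initiator tRNA carriers outside the complex, Eif2a and Eif2d had log2 differences of 0.33 and 0.41, at low levels of 21.04 and 9.11 CPM in knockouts. None of the 5 tested eIF2 genes was called by edgeR, beside 5.74% of all genes. At an unadjusted p below 0.05 there was 1 higher (Eif2s2), beside 8.3% of all genes. The median of the 5 was 0.33.

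eIF2B is the complex that phosphorylated eIF2alpha blocks, and none of its 5 genes was called by edgeR or in any of the 17 alternatives, with 0 at an unadjusted p below 0.05. Eif2b5, the catalytic subunit, read 285, 225, 190 and 169 CPM in controls and 207, 222, 200 and 160 CPM in knockouts. The groups overlapped, and the log2 difference was -0.14 with an interval of -0.50 to 0.23. Eif2b2 read 76.4, 106, 80.4 and 76.6 CPM in controls and 122, 84.7, 94.3 and 92.6 CPM in knockouts. Its log2 difference was 0.21 ± 0.17 (SE), the smallest p of the complex, with an adjusted p of 0.565 by edgeR's quasi-likelihood test. Eif2b1, Eif2b3 and Eif2b4 had log2 differences of -0.33, -0.07 and -0.10. Eif2b1 was the lowest of all tested members at 4.21 CPM, and a 2-fold lower level lay inside its interval of -1.22 to 0.56. The median of the 5 was -0.10 and ran from -0.17 to 0.02 in the alternatives.

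The eIF1 genes guard start codon choice. Eif1 read 324, 682, 778 and 1116 CPM in controls 1 to 4. It read 924, 961, 913 and 1268 CPM in knockouts 1 to 4. Control 1 was far below every knockout and control 4 above all but 1 of them. The log2 difference of Eif1 was 0.49 ± 0.27 (SE), with an adjusted p of 0.386 by edgeR's quasi-likelihood test. Of the words near its 3′ ends, 25.8% occur in 16 other gene models, among them Eif1 pseudogenes. Eif1ad, which encodes a protein with the eIF1A fold, read 56.2, 61.9, 66.7 and 82.1 CPM in controls and 86.3, 93.2, 80.4 and 136.6 CPM in knockouts. Control 4 lay above knockout 3, so the groups overlapped by that pair. The log2 difference of Eif1ad was 0.57 ± 0.19 (SE), with an adjusted p of 0.101 by edgeR's quasi-likelihood test. Eif1ad shares 428 exonic bases with Banf1 on the opposite strand, and whether the counting used strand is unknown here. Limma-voom called Eif1ad. Eif1a, Eif1ax and Eif1b had log2 differences of 0.12, -0.08 and -0.22, and the median of the 5 genes was 0.12.

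The eIF4 genes, which recognise the cap and open the mRNA, showed no called member among 12 by edgeR or in the 17 alternatives, with 0 at an unadjusted p below 0.05, and the interval of all 12 lay within 2-fold. Their median log2 difference was -0.03, with 5 above 0 and 7 below. Eif4g2, a relative of the eIF4G scaffold that lacks the eIF4E binding site, had the highest level of them. It read 488, 740, 763 and 1075 CPM in controls and 814, 792, 803 and 705 CPM in knockouts. All 4 knockouts lay inside the control range, and the log2 difference was 0.02 ± 0.19 (SE). Eif4e3, an eIF4E-like cap-binding gene, had the smallest p. It read 47.2, 39.3, 49.6 and 47.0 CPM in controls and 33.3, 39.0, 39.7 and 35.6 CPM in knockouts. All but 1 knockout lay below the lowest control, and the log2 difference of Eif4e3 was -0.31 ± 0.16 (SE), with an adjusted p of 0.340 by edgeR's quasi-likelihood test. It shares 373 exonic bases with Gm20696 on the same strand.

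Other eIF4 genes gave small differences. The RNA helicase Eif4a1 had a log2 difference of 0.32 with an interval of -0.28 to 0.91. Its paralog Eif4a2 gave -0.06, and Eif4a3, which works in the exon junction complex, gave -0.12. The helicase cofactors Eif4b and Eif4h gave -0.12 and -0.01. The cap-binding protein Eif4e gave 0.12, Eif4e2, which can repress translation from the cap, -0.19, and Eif4enif1, which carries eIF4E into the nucleus, -0.28. The scaffolds Eif4g1 and Eif4g3 gave 0.12 and 0.09. None of these passed the test.

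Eif5b, the GTPase of subunit joining, read 1092, 923, 981 and 817 CPM in controls and 889, 983, 926 and 1161 CPM in knockouts. The groups overlapped, with a log2 difference of 0.05 ± 0.14 (SE). Eif5b shares 1643 exonic bases with Rev1 on the opposite strand. Eif5a, which is modified with hypusine and acts mainly in elongation, read 179, 320, 232 and 328 CPM in controls and 249, 217, 209 and 192 CPM in knockouts. All 4 knockouts lay within the control range, and the log2 difference was -0.29 ± 0.18 (SE), with an adjusted p of 0.448 by edgeR's quasi-likelihood test. Eif5, the GTPase activator of eIF2, gave 0.18 with an interval of -0.20 to 0.56. Eif6 read 81.8, 62.4, 51.1 and 65.9 CPM in controls and 83.0, 65.0, 61.9 and 61.3 CPM in knockouts, with a log2 difference of 0.05 and an interval of -0.32 to 0.43.

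Summed over all 48 genes, initiation factors took 14412 to 16264 CPM in controls and 16739 to 19134 CPM in knockouts. The groups did not overlap, and the ratio of the means was 1.18. The sum is dominated by a few genes. Without Eif2s2 and Eif3c it ran from 10736 to 11672 CPM in controls and from 12027 to 12541 CPM in knockouts, a ratio of 1.09. These sums were described with no test.

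The spread among controls bears on several members. From control 1 to control 4 the ratio of CPM ran from 0.490 for Eif5 to 3.57 for Eif4a1, and 8 of 43 members differed by at least 2-fold. Members highest in control 4 relative to control 1 were Eif4a1, Eif1, Eif3e, Eif2b1, Eif3m, Eif4g2, Eif3i and Eif4g1. Eif5, Eif4e2, Eif3h, Eif3k, Eif2b5 and Eif3a ran the other way. The range within controls was wider than within knockouts for 32 of 43 members, with a median ratio of highest to lowest of 1.496 in controls and 1.31 in knockouts. No share over all genes was worked out for these counts of members. The root mean square deviation over the members was 0.438 and 0.367 log2 units in controls 1 and 4, 0.189 and 0.160 in controls 2 and 3, and 0.124 to 0.212 in the knockouts. Over all genes tested it was also largest in controls 1 and 4, at 0.594 and 0.581, so the spread was not particular to the members.

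**Figure D3:**
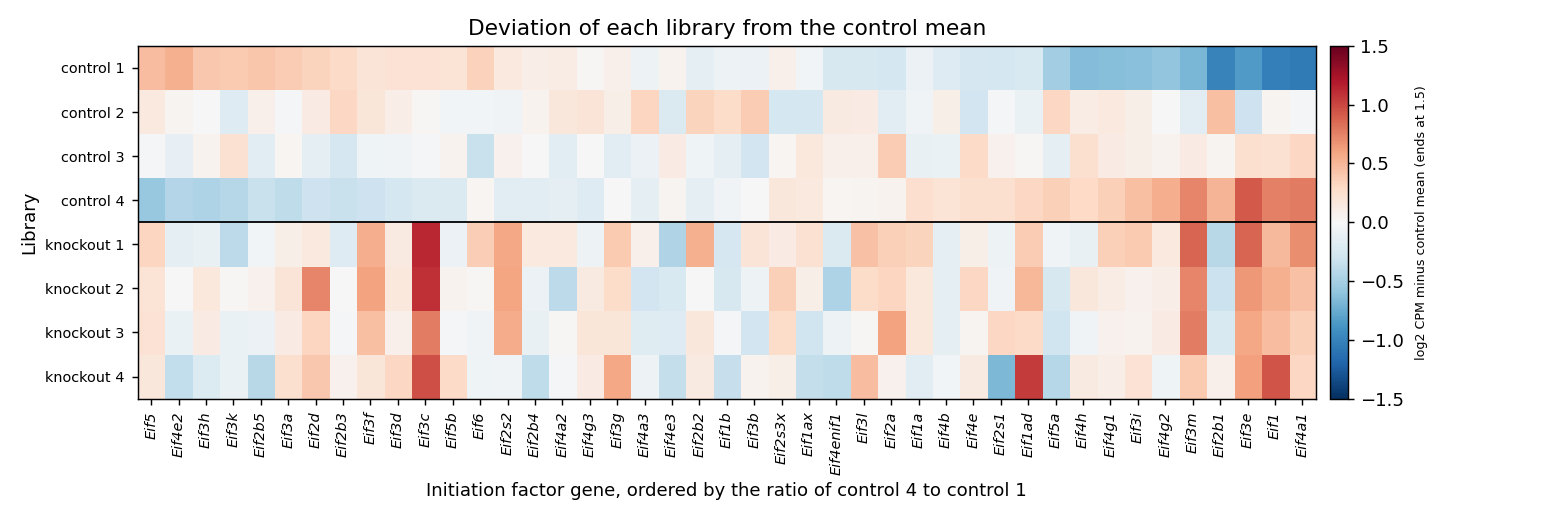
Log2 of CPM plus 0.1 in each library minus the control mean for the 43 tested members, ordered by the ratio of control 4 to control 1, with red above and blue below the control mean. Controls 1 and 4 deviate in opposite directions at both ends, and Eif3c is high in all 4 knockouts.

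The log2 ratio of the CPM of paralogs was compared within each library for 8 pairs in which both genes passed the filter. The pairs Eif2s3x with Eif2s3y, Eif3j1 with Eif3j2 and Eif5a with Eif5a2 could not be tested. Only Eif4e over Eif4e3 did not overlap between groups. Its log2 ratio was -0.53, -0.31, -0.06 and -0.04 in controls 1 to 4, and 0.31, 0.30, 0.00472 and 0.26 in knockouts 1 to 4. All 4 knockouts thus held relatively more Eif4e, by 0.45 log2 units, with p = 0.0286 in an exact two-sided permutation test, the smallest this design can give, and 0.229 after adjustment over the 8 pairs. The pair with the largest shift was Eif1 over Eif1b, by 0.82 log2 units, whose groups overlapped, with an exact permutation p of 0.114 and 0.457 after adjustment. No pair passed the threshold after adjustment. A single pair at the smallest possible p could not pass it among 8 pairs. The adjusted values therefore cannot decide whether Eif4e over Eif4e3 alone differed.

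Promoter sequences for 38 of the 48 members were found in RefSeq (GRCm38.p6), as windows from 250 bases before to 50 after the start. Such windows were searched for CACGTG, the E-box bound by MYC and related factors, which reads the same on both strands, and for TGATGNAA on both strands, the element bound by ATF4 with CEBP partners. The E-box letters occur in 10 of the 38 genes (26.3%), against 8.09% of 27025 genes with a promoter window. Those 27025 were not limited to the 9904 genes tested here. Whether the share is as high in other genes of similar level was not tested. A gene with several windows was counted if any of them matched. The 10 genes are Eif1b, Eif3a, Eif3f, Eif3k, Eif4a1, Eif4e, Eif4g1, Eif4h, Eif5a and Eif5a2. These sites are shown because they are a shared feature that the choice of genes did not use, with the E-box in capitals and the sequence on the gene's own strand. They lie at chr7:108934336-108934363 (Eif3f, plus strand), chr11:69672596-69672623 (Eif4a1, minus), chr3:138527193-138527220 (Eif4e, plus), chr16:20672662-20672689 (Eif4g1, plus) and chr11:69921444-69921471 (Eif5a, minus).
Eif3f: aagatatgattCACGTGgtataaattta
Eif4a1: gatcgcctccgCACGTGtaaaggtgctg
Eif4e: gacacgtccgtCACGTGggcaggagccg
Eif4g1: gcagtgggtgtCACGTGatggggcggag
Eif5a: aggggcggggtCACGTGtgtgcgtcatc
Of the 9 that could be tested, edgeR called 0, beside 5.74% of all genes. DESeq2 also called 0, beside 3.72% of all genes higher and 4.95% lower. Limma-voom called 1 higher, Eif3f, beside 4.85% of all genes. Eif3f also had the only unadjusted p below 0.05 by edgeR, beside 8.3% of all genes higher and 9.72% lower. Counts this small do not set the 9 genes apart from all genes. The log2 differences of the 9 ran from -0.29 for Eif5a to 0.44 for Eif3f, with a median of 0.12. A match is a description of the letters and not of binding.

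TGATGNAA was found in 1 of the 38 members, Eif2s3x (2.63%), against 4.51% of all genes with a promoter window. It was found in 3 of 6 reference genes of the integrated stress response, Asns, Chac1 and Trib3, which are printed for comparison with the match in capitals. The sites are at chrX:94212729-94212758 (Eif2s3x, minus strand), chr6:7693214-7693243 (Asns, minus), chr2:119351038-119351067 (Chac1, plus) and chr2:152344028-152344057 (Trib3, minus).
Eif2s3x: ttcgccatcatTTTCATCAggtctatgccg
Asns: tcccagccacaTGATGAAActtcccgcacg
Chac1: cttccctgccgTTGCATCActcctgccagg
Trib3: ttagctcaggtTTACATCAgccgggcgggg
In the Eif2s3x, Chac1 and Trib3 lines the match is on the opposite strand and so appears as its reverse complement.

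Genes that act on the initiation factors were read from lists chosen with earlier results of these data known, so that the counts are no independent evidence. The 6 reference genes of the integrated stress response gave 5 higher and 0 lower, with a median log2 difference of 1.59, where 2.54% of all genes were higher and 3.19% lower with a median of -0.01. The transcription factors Atf5 and Ddit3 (CHOP) had log2 differences of 2.40 and 1.54, the pseudokinase Trib3 2.66, the glutathione-degrading enzyme Chac1 1.63 and asparagine synthetase Asns 1.34, with adjusted p up to 0.00116 by edgeR's quasi-likelihood test. The exception was Atf4, whose groups overlapped because control 1 stood at 2268 CPM, and which gave 0.72 with an adjusted p of 0.0787 by edgeR's quasi-likelihood test. Of the 6 eIF2alpha kinases and phosphatase genes, 1 was higher (2.54% of all genes) and 0 lower (3.19%), with a median of -0.16. It was Ppp1r15a (GADD34), the inducible subunit that directs a phosphatase to eIF2alpha, which went from 31.5 ± 4.76 to 60.2 ± 9.43 CPM (SD, n = 4), a log2 difference of 0.93 ± 0.18 with an adjusted p of 0.00577 by edgeR's quasi-likelihood test.

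Among 14 regulators and partners of the cap complex, 2 were higher (2.54% of all genes) and 0 lower (3.19%), with a median of 0.29. Eif4ebp1, which binds eIF4E and keeps it from eIF4G until mTORC1 phosphorylates it, went from 16.1 ± 5.11 to 42.4 ± 2.33 CPM (SD, n = 4), with a log2 difference of 1.39 ± 0.22 and an adjusted p of 0.0012 by edgeR's quasi-likelihood test. Mknk1, a kinase of eIF4E, went from 10.2 ± 0.897 to 22.9 ± 2.61 CPM (SD, n = 4), with a log2 difference of 1.16 ± 0.21 and an adjusted p of 0.0035 by the same edgeR test. The groups of libraries did not overlap for 6 of these 14 genes, all higher (6.45% of all genes). The target of both proteins, Eif4e itself, read 32.6, 31.7, 47.5 and 45.9 CPM in controls and 41.4, 48.0, 39.9 and 42.7 CPM in knockouts.

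**Figure D4:**
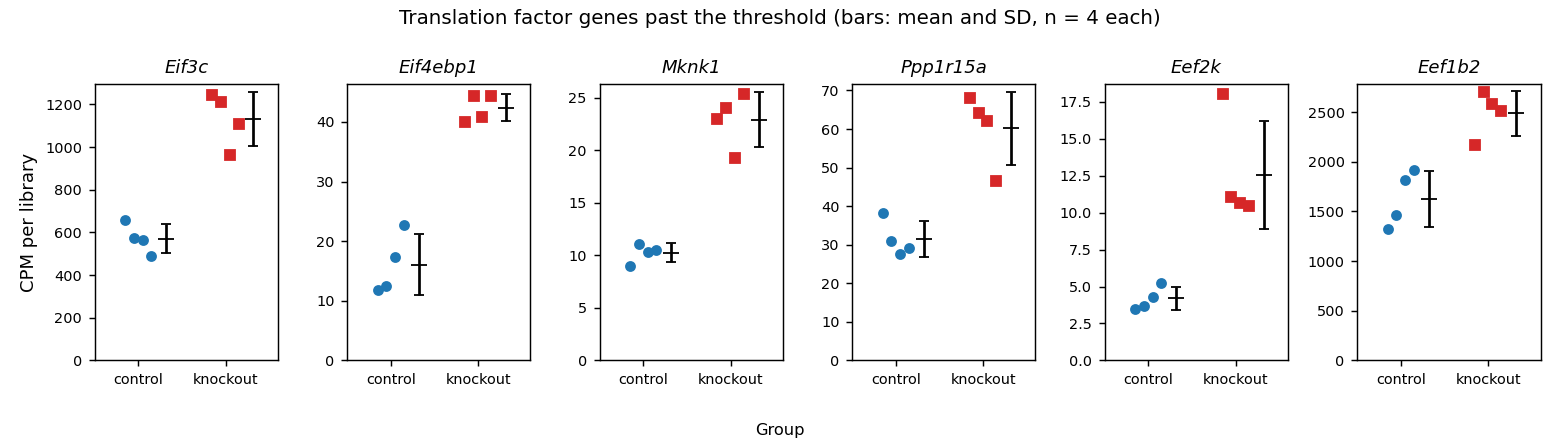
CPM of the called initiation factor gene and the called partner genes in each library, on linear axes from 0, with controls as blue circles, knockouts as red squares and bars for the mean and SD (n = 4). The 4 knockouts of Eif3c, Ppp1r15a, Eif4ebp1, Mknk1, Eef2k and Eef1b2 all lie above the 4 controls.

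Of 10 elongation and termination genes, 2 were higher (2.54% of all genes) and 0 lower (3.19%), with a median of 0.30. Eef2k, the kinase that inactivates elongation factor eEF2, went from 4.20 ± 0.786 to 12.5 ± 3.65 CPM (SD, n = 4), with a log2 difference of 1.57 ± 0.30 and an adjusted p of 0.00577 by edgeR's quasi-likelihood test. Eef1b2, part of the exchange factor of eEF1A, went from 1630 ± 282 to 2490 ± 228 CPM (SD, n = 4), with a log2 difference of 0.61 ± 0.15 and an adjusted p of 0.0227 by the same edgeR test. The call of Eef1b2 was lost without control 2, knockout 2, knockout 3 or knockout 4, with adjusted p up to 0.102. Of 6 scanning, reinitiation and recycling genes 0 were called by edgeR or in the alternatives, and 0 had an unadjusted p below 0.05. The smallest p there was that of Abce1, a ribosome recycling factor, with a log2 difference of 0.33 and an adjusted p of 0.286. The 2 hypusination genes of eIF5A, Dhps and Dohh, gave 0.19 and 0.02, and 0 of 8 mitochondrial translation factors were called by edgeR or in the alternatives. The smallest p among the latter was that of Tufm, the mitochondrial elongation factor Tu, with a log2 difference of -0.23 and an adjusted p of 0.605 by edgeR. Neither list held a gene with an unadjusted p below 0.05.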

How the data were processed

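The deposited files hold whole-number read counts per gene symbol for 8 libraries, 1 per mouse, not normalized; per the labels' protocols they are QuantSeq 3′ FWD libraries. The mm10 build, HTSeq 0.6.1, TopHat2 2.1.1, BWA 0.7.12 and SAMtools 1.3.1 are named per the submitters' processing notes. What each tool did, which annotation was counted and whether strand was used is not given in the sources here. No molecular identifiers are stated, so counts may include PCR copies.

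Samples were grouped by title and genotype. No pair of libraries in a group agreed within sampling noise (chi-square per degree of freedom 6.60 to 94.2). Genes were filtered with filterByExpr (minimum count 10, minimum total 15), which left 9904, and tested with edgeR 4.0.16 in R 4.3.3 (TMM factors, robust quasi-likelihood F-test, group as the only term, two-sided, Benjamini-Hochberg over all genes tested, threshold 0.05). CPM uses TMM-scaled totals. The SE of a log2 difference is its size over the root of F. Paralog ratios used log2 CPM with a prior count of 2. DESeq2 1.42.0, limma-voom (3.58.1), other scalings, other filters, a replicate term and leaving out libraries were alternatives. The fit was tested on simulated counts. It called 10.4% of simulated 1.5-fold, 65.7% of 2-fold and 100% of 4-fold changes, with 7 false among 124 calls. In that simulation a 1.5-fold change was thus mostly missed. The changed genes there were drawn from all genes above a low level, with a median over all tested genes of 19.3 CPM. The members were read more deeply, at a median of 129 CPM, so these shares may not hold for them.

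The members and lists were chosen with earlier results of these data known. Values in every library are given for called members, the member with the highest mean CPM in each complex and, in complexes with no call, the member of smallest p. From each partner list the called genes are named, or the 1 or 2 with the smallest p. Eif3e, Eif3g, Eif3m and Eif4e were given in full after their values were seen. Symbols were placed on GENCODE M21 (GRCm38). Overlaps of 3′ ends were searched as 50-base words in the last 300 bases of each transcript.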

Additional observations from a re-analysis of the deposited data

Results flagged for a closer look

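In each group of 4 libraries the highest or lowest value was compared with the rest, for 43 genes in both groups. Of these 86 groups, 7 had a library that stood apart, and chance gives about 1 in 20, or 4.3. In the knockouts, replicate 4 was high for Eif1 (1268 CPM) and Eif4b (223 CPM) and low for Eif2s2 (3442 CPM), and replicate 1 was high for Eif4g1 (485 CPM). In the controls, replicate 4 was high for Eif1a (79.4 CPM), and replicate 2 was high for Eif2b2 (106 CPM) and Eif4a3 (276 CPM).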

How the results depend on the processing

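The call of Eif3c held in all 17 alternatives, with a log2 difference of 0.91 to 1.07 when 1 library was left out, and no result changed sign past a threshold. The count of members higher rose from 1 to 6 with limma-voom, ran from 1 to 5 when 1 library was left out, and was 5 without controls 1 and 4 together, an alternative chosen after seeing the data; the count lower was 0 in each. Leaving out control 4 added Eif1, Eif1ad, Eif3e and Eif3m, control 1 Eif3f, and knockout 4 Eif2s2. Over all genes, 568 calls became 858 with DESeq2, 1070 with limma-voom, 270 to 892 without 1 library and 901 without controls 1 and 4. The eIF2 median ran from 0.23 to 0.41 without 1 library. The eIF3 median was 0.18 with limma-voom, 0.19 without controls 1 and 4, and 0.18 to 0.30 without 1 library. The medians of eIF1, eIF2 and eIF3 kept their sign in all 17, while those of eIF2B, eIF4, eIF5 and eIF6 crossed 0 in 1 or 2 of them. The cause of these shifts was not tested. With the replicate number as a block, 509 genes and 1 member were called, and Eif3c gave 0.99 with an adjusted p of 0.00138 by edgeR. Same-numbered libraries deviated together little (correlations of -0.00 to 0.07), and 1 of 4 controls correlated best with its own number, so the numbers were not taken as pairs. Eif5a2 had too few counts to test.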
